A study of Mus musculus with 3 samples.

Results

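The 9 genes described here carry the classical MHC class I antigen presentation pathway of the mouse, from the molecules shown at the cell surface to the machinery that supplies them with peptides. H2-K1 and H2-D1 encode heavy chains and B2m their shared light chain, Tap1, Tap2 and Tapbp move and load peptides, Nlrc5 encodes the transactivator of these genes, and Psmb8 and Psmb9 encode inducible proteasome subunits. They were chosen by symbol. All 9 were found, each as 1 of the 55450 genes counted, of which 39024 had at least 1 molecule, and together they held 331561 of the 283291515 molecules in the cells used.

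The cells came from mouse testis, in 3 droplet libraries that read the 3' end of each transcript and count molecules by a tag (UMI). All groups were made azoospermic with busulfan, a chemotherapeutic alkylator toxic to proliferating spermatogonia. The control group was then injected with PBS (called PBS below). Another group received vesicles from blood (exosomes) of wild-type donors (EXO), and the last received blood exosomes of donors whose intestinal microbiota was imbalanced (dEXO). The sources used here do not give strain, age, dose, time or how many animals a library holds. Part of the extraction text names another tissue, but germ cell, Sertoli and Leydig markers were all present. With 1 library per group nothing could be tested: each interval below is a 95% interval for counting error only, and no value has a replicate check.

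A class I molecule is a heavy chain bound to β2-microglobulin, the B2m product, and holds a short peptide that cytotoxic T cells can inspect. Peptides are cut by the proteasome, whose inducible subunits replace constitutive ones in immune cells and after interferon. They are pumped into the endoplasmic reticulum by the TAP1 and TAP2 transporter and fitted into the heavy chain with the help of tapasin, the Tapbp product. NLRC5 acts at the promoters of most of these genes together with the RFX and NF-Y factors. The testis is known as an immune-privileged organ, in which meiotic germ cells lie behind the barrier formed by Sertoli cells.

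Of the 9 genes, 7 lie in the MHC region of chromosome 17 (GRCm38). H2-K1 (ENSMUSG00000061232) spans chr17:33996017-34000347 on the minus strand and H2-D1 (ENSMUSG00000073411) chr17:35262730-35267499 on the plus strand. B2m (ENSMUSG00000060802) is at chr2:122147686-122153083 and Nlrc5 (ENSMUSG00000074151) at chr8:94434356-94527272, both on the plus strand. Tapbp (ENSMUSG00000024308, chr17:33915899-33929292), Tap1 (ENSMUSG00000037321, chr17:34187553-34197225), Psmb8 (ENSMUSG00000024338, chr17:34197721-34201454) and Tap2 (ENSMUSG00000024339, chr17:34203527-34216321) are on the plus strand, and Psmb9 (ENSMUSG00000096727, chr17:34181987-34187764) is on the minus strand. Psmb9 and Tap1 overlap head to head, and B2m, Tap2, Tapbp, Nlrc5 and Psmb8 overlap other annotated genes. Whether counting used the strand is not given, so molecules of overlapping genes may have been shared. H2-K1 and H2-D1 are close paralogs that differ between strains, and how their reads were split is unknown.

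The promoter sequences of H2-K1 and B2m are shown because the heavy chain and the light chain, which pair 1 to 1 in the protein, had unequal levels in the germ cells. They are RefSeq sequences of GRCm38.p6, 250 bases before the start of each gene, and capitals mark matches to the motifs searched, on either strand. The H2-K1 stretch is chr17:34000348-34000597 (minus strand) and that of B2m chr2:122147437-122147686 (plus strand).
H2-K1: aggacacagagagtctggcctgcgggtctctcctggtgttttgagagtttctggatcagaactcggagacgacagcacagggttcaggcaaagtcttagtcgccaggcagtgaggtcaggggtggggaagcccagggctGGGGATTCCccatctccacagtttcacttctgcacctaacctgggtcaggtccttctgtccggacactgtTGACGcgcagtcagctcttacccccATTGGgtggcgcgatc
B2m: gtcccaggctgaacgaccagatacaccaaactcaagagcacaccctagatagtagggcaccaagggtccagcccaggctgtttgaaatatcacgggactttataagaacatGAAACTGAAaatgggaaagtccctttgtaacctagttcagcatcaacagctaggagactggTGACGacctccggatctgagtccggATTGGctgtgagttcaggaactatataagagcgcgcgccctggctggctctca
Both hold TGACG, a CRE-like motif of the X box, and ATTGG, the reverse complement of the CCAAT of a Y box. For the exact letters searched, GGGNNTTCC, which is like an NF-kB site, was matched in H2-K1 alone of this pair. GAAANNGAA, which is like an interferon-stimulated element, was matched in B2m alone. Sites with other letters or spacing were not searched, so a missing match does not show that a gene lacks such a site. The stretch around the NF-kB-like match is nearly the same in both heavy chain genes. The 30 bases below, chr17:34000439-34000468 on the minus strand for H2-K1 and chr17:35262913-35262942 on the plus strand for H2-D1, differ at 1 position.
H2-K1: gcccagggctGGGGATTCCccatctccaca
H2-D1: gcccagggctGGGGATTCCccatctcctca
RefSeq promoter windows were matched for 7 of the 9 genes (not Nlrc5 and Tap2). CCAAT was in 6 of the 7 and in 37.4% of all 32851 windows of 300 bases, TGACG in 5 of 7 and 20.8%, and GGGNNTTCC in H2-K1 and H2-D1 and 5.82%. GAAANNGAA was in 1 of 7 and 8.56%. Tap1 and Psmb9 share most of their window, so their matches are not separate. A match describes the letters and shows no binding.

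After filtering, 5267 PBS, 9860 EXO and 9119 dEXO cells were used, with 91787154 to 97253862 UMIs per deposited library. Cells were deeper in PBS (median 8398 UMIs) than in EXO (3256.5) or dEXO (3104). They were clustered without the 9 genes and their pathway lists, so that class I levels could not shape the clusters, and clusters were named from marker genes. Germ stage names below stand for clusters in which markers of that stage were raised over the other germ cells, and they are not sharp. Cluster g10, named spermatogonia, had 1960 CPM of spermatogonial and 2248 of early spermatocyte markers, and 68 to 89 of its 135 cells took another class name under 6 of the alternatives. The spermatid clusters g3 and g12 had 9124 and 6328 CPM of spermatid but 10245 and 10816 of late spermatocyte markers, and up to 116 of the 120 cells of g12 took another class name. Of the late spermatocyte cluster g0, 228 of 267 cells took another class name at resolution 2. With the class I genes kept in the clustering it was 212. Of g5, 155 of 185 did so with each library clustered alone, and of g9 at most 8 of 137 under any alternative clustering. Early spermatocyte clusters mostly lost cells to unnamed clusters. This held for 104 of 149 cells of g7 at resolution 2 and 126 of 138 of g8 with no doublets removed. With the highest doublet scores removed it held for 166 of 193 cells of g4 and 137 of 254 of g2. Of g13, at most 38 of 105 cells took another class name. The PBS library held 59 spermatogonia and 52 early spermatocytes, the EXO library 80 and 297, and the dEXO library 214 and 490. Late spermatocytes (286 and 529) and spermatids (145 and 223) were used in EXO and dEXO alone, because PBS had 36 and 43, fewer than the 50 required. Clusters called Sertoli-like, Leydig-like, stromal-like, macrophage-like and T or NK-like supplied the other classes, with 81 to 3838 cells per library. Every marker of these 9 classes had UMIs in its own class in each library used. Unnamed clusters held 13.7%, 16.2% and 25.9% of the cells in PBS, EXO and dEXO, and 15 to 17 barcodes were shared by any pair of libraries. One of them, c11, had 962 cells, a median of 1412 UMIs and 19 of 20 spermatid markers raised. Macrophage markers were the best match of c14 (499 cells), and T or NK markers that of c18 and c19 (310 and 307), each with Leydig markers as a second class. Stromal markers were the best match of c6 and c10 (1570 and 988 cells). Class values below leave these cells out.

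H2-K1 was present in every germ stage, at levels that differed widely between stages. Levels are UMIs of the gene per 1000000 UMIs of a class in a library (CPM). H2-K1 was at 51.8, 60.3 and 57.7 CPM in spermatogonia of PBS, EXO and dEXO, from 100 to 242 UMIs. In early spermatocytes it stood at 349 (interval 314 to 387), 485 (458 to 512) and 484 (461 to 507) CPM. The early spermatocytes of all 3 libraries lay above all other germ stages, with no overlap. Late spermatocytes had 33.3 CPM in EXO and 35.5 in dEXO, and spermatids 11.6 and 12.3. Among somatic classes, H2-K1 reached 354, 399 and 371 CPM in Leydig-like cells, 271, 219 and 223 in Sertoli-like cells and 114, 155 and 136 in stromal-like cells. The early spermatocytes therefore overlapped the Leydig-like cells and lay above the Sertoli-like and stromal-like cells. T or NK-like cells had the highest levels, 2601, 2858 and 2523 CPM, followed by macrophage-like cells with 1302, 1582 and 1479.

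H2-D1, the other classical heavy chain, followed the same order among the germ stages at lower levels. Spermatogonia had 9.98, 16.3 and 10.7 CPM in PBS, EXO and dEXO, early spermatocytes 66.7, 99.8 and 113, late spermatocytes 5.39 and 3.90 in EXO and dEXO, and spermatids 2.06 and 3.65. Early spermatocytes were again the highest germ stage, without overlap. Late spermatocytes lay above spermatids, narrowly in dEXO (3.90 against 3.65). Leydig-like cells had 171, 198 and 163 CPM, stromal-like cells 192, 187 and 174, and Sertoli-like cells 191, 87.7 and 82.3. Thus H2-D1 in early spermatocytes stayed below the Leydig-like and stromal-like cells and overlapped the Sertoli-like ones. Macrophage-like cells had 2755, 2983 and 2297 CPM and T or NK-like cells 2453, 2595 and 2189, ranges that overlap.

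B2m, the light chain, was low in all germ stages. It was at 9.98, 21.1 and 17.6 CPM in spermatogonia and at 25.5 (16.7 to 37.3), 38.0 (30.9 to 46.3) and 28.9 (23.6 to 35.1) in early spermatocytes. Late spermatocytes had 14.8 and 15.2 CPM in EXO and dEXO and spermatids 12.8 and 14.4, ranges that meet or overlap those of spermatogonia. The somatic classes were far above: Leydig-like cells had 534, 763 and 655 CPM, stromal-like cells 431, 549 and 499, and Sertoli-like cells 133, 87.2 and 96.7. Macrophage-like cells (2565 to 2783 CPM) and T or NK-like cells (2487 to 3031 CPM) were highest and overlapped.

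**Figure D1:**
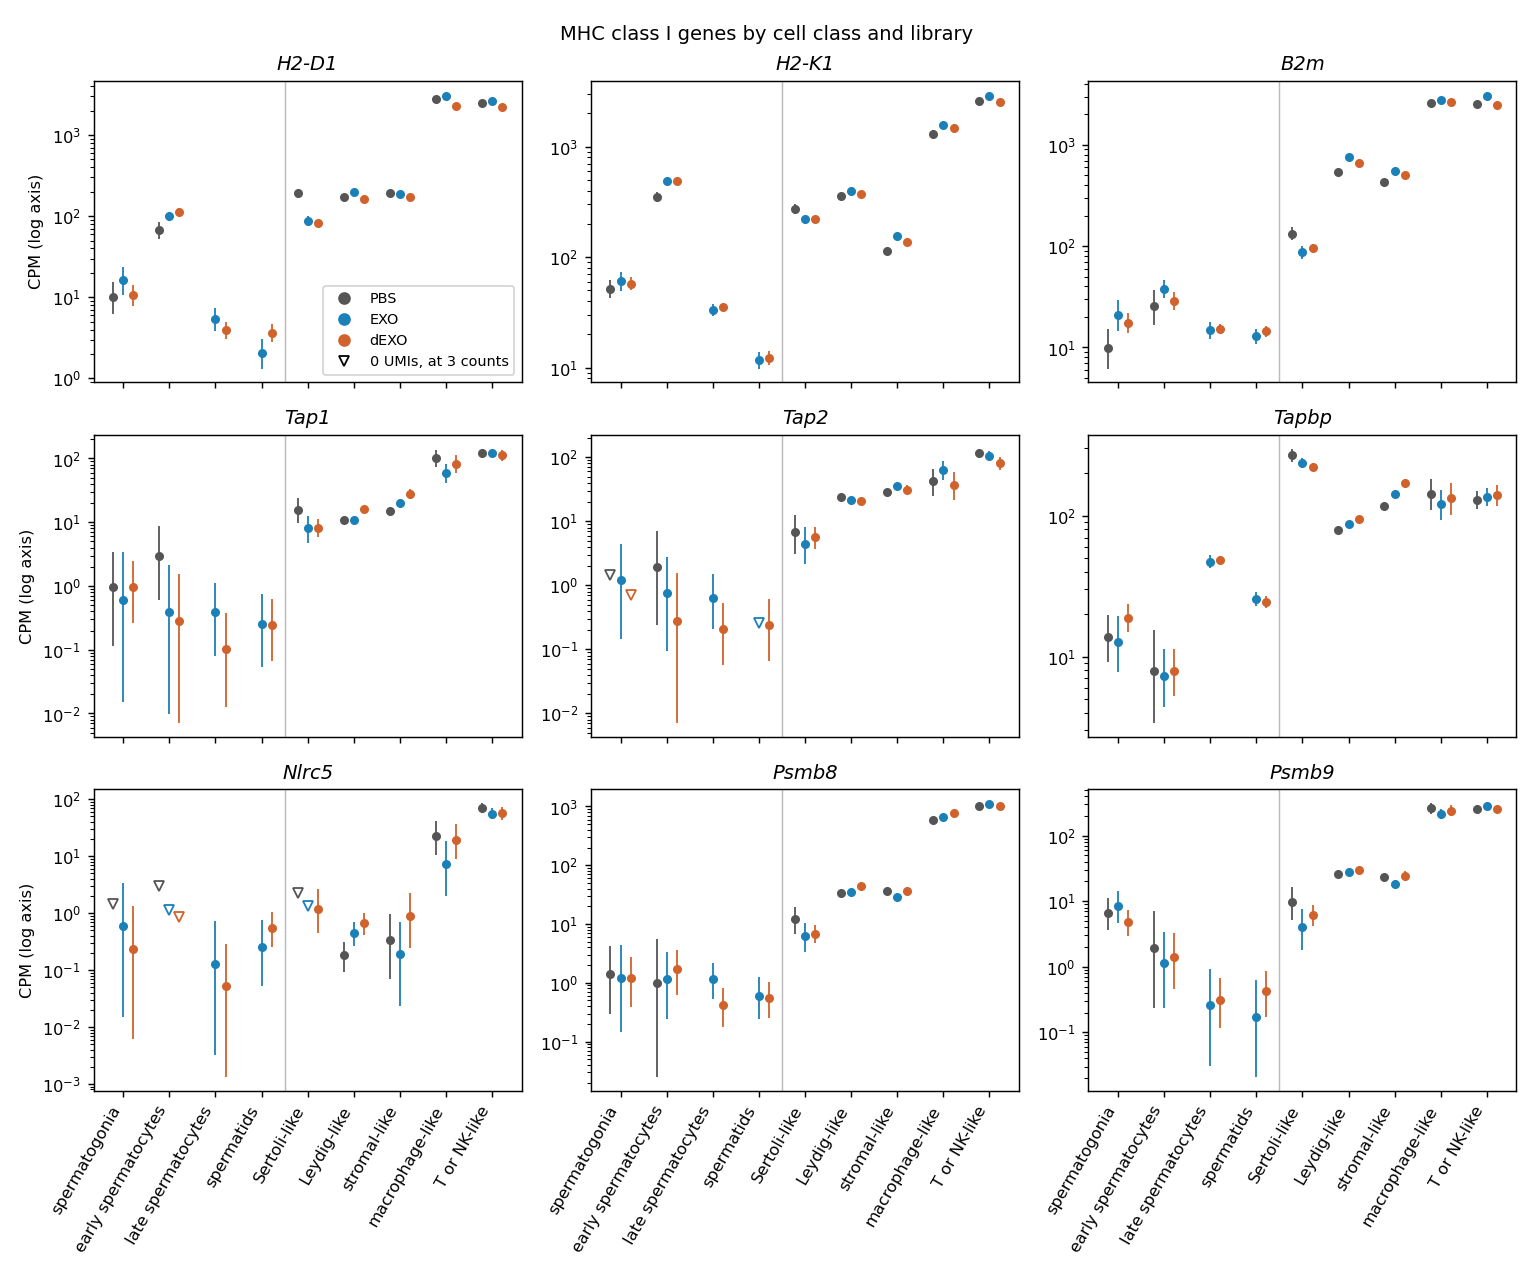
Levels of the 9 genes in CPM on a log axis (vertical) in 9 cell classes (horizontal), 1 panel per gene, with 1 point per library; bars are exact 95% Poisson intervals, and open triangles mark classes with 0 UMIs, placed at the level of 3 counts. H2-K1 in early spermatocytes sits at 349 to 485 CPM, beside Leydig-like cells at 354 to 399, while B2m is at 25.5 to 38.0 in the same germ cells.

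The number of heavy chain UMIs per B2m UMI was highest in early spermatocytes. UMIs count 3' ends, so such a ratio is read here between classes only. In early spermatocytes H2-K1 and H2-D1 together gave 16.3 UMIs per B2m UMI in PBS, with an interval of 11.0 to 25.3. EXO gave 15.4 (12.5 to 19.0), and dEXO gave 20.7 (16.9 to 25.4). Spermatogonia had 6.19, 3.63 and 3.88, late spermatocytes 2.62 and 2.58, and spermatids 1.07 and 1.11. Outside the germ line the ratio was 3.16 to 3.52 in Sertoli-like cells, 1.80 to 2.02 in T or NK-like cells, 1.43 to 1.64 in macrophage-like cells, 0.78 to 0.98 in Leydig-like cells and 0.62 to 0.71 in stromal-like cells. Early spermatocytes did not overlap any of these, whereas the intervals of spermatogonia in EXO (2.48 to 5.44) and dEXO (2.99 to 5.08) overlapped Sertoli-like cells, and the later stages lay within the range of the other classes. The 2 heavy chains also differed in share: H2-K1 made up 77.1% to 90.1% of the pair's UMIs in the germ stages, against 66.8% to 69.5% in Leydig-like, 51.5% to 53.5% in T or NK-like, 37.2% to 45.3% in stromal-like and 32.1% to 39.2% in macrophage-like cells. Sertoli-like cells ranged from 58.7% in PBS to 73.0% in dEXO.

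Between stages, a gene is called different where its levels differ at least 2-fold with an interval that leaves out 0 on the log2 scale, and a gene needs 50 UMIs over both sides. From spermatogonia to early spermatocytes H2-K1 was higher by log2 2.75 (2.44 to 3.07) in PBS, 3.01 (2.71 to 3.32) in EXO and 3.07 (2.87 to 3.27) in dEXO, and H2-D1 by 2.74, 2.62 and 3.40. These were 2 members called higher of 2, 3 and 4 with enough UMIs, where the same call was made for 9.33%, 9.01% and 12.1% of all genes. B2m was higher by 0.85 (0.28 to 1.45) in EXO and 0.71 (0.27 to 1.16) in dEXO, short of the 2-fold limit, and had too few UMIs in PBS. Tapbp, which encodes tapasin, was lower by the call rule in dEXO at log2 -1.26 (-1.94 to -0.62).

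From early to late spermatocytes H2-K1 was lower at log2 -3.87 in EXO and -3.77 in dEXO, and H2-D1 at -4.21 and -4.86. B2m was at -1.36 in EXO, a call, and at -0.92 in dEXO, none. The EXO call was lost relative to the median gene (-0.92), with at least 1000 UMIs per cell (-0.96) and after thinning (-0.81). Altogether 3 of 4 members in EXO and 2 of 4 in dEXO were called lower, beside 42.5% and 40.2% of all genes, so that many genes were lower in this step. Tapbp went the other way, by 2.69 (2.03 to 3.44) and 2.63 (2.08 to 3.22). From late spermatocytes to spermatids H2-K1 was lower again, at -1.51 and -1.53, but at -0.60 in EXO, no longer a call, with each library clustered alone and at -3.58 and -2.65 after thinning. In this step H2-D1 was at -1.39 in EXO, a call, and at -0.10 (-0.61 to 0.41) in dEXO, none. Altogether 2 of 4 members in EXO and 1 of 4 in dEXO were called lower. The median gene was also lower, at -0.32 in EXO and -0.40 in dEXO, and the share of all genes called was not computed for this step. Over the alternatives the EXO value of H2-D1 ranged from -1.40 to -0.27.

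The heavy chain excess of early spermatocytes was carried most strongly by 1 of their 5 clusters, numbered g2. Its 254 cells (9 PBS, 85 EXO, 160 dEXO) were led by genes that include Prdm9, Rad51ap2 and Rad21l, which act on meiotic recombination and chromosome cohesion, and raised 9 of the 10 early spermatocyte markers. Over the libraries g2 had 953 CPM of H2-K1 (913 to 994), 250.1 of H2-D1 (230 to 272), 42.6 of B2m and 9.86 of Tapbp. H2-K1 in g2 was at 1023 CPM in EXO and 953 in dEXO. The other early spermatocyte clusters had 143 to 321 CPM of H2-K1 and 11.6 to 52.7 of H2-D1, still above the 45.9 and 83.7 CPM of H2-K1 in the spermatogonial clusters g6 and g10. The 4 late spermatocyte clusters were at 18.8 to 79.6 CPM of H2-K1, overlapping the spermatogonial ones, and the 3 spermatid clusters at 8.99 to 13.9.

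**Figure D2:**
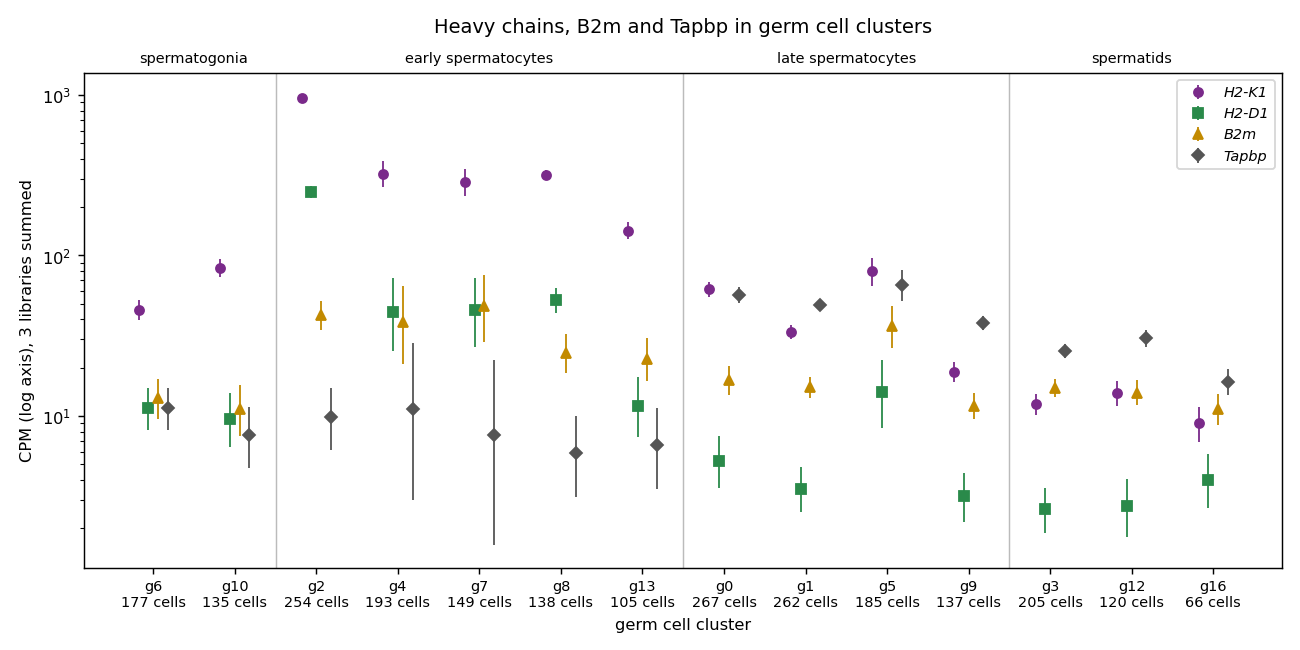
Levels of H2-K1, H2-D1, B2m and Tapbp in CPM (log axis, vertical) in the 14 germ clusters with at least 50 cells (horizontal, by stage, with cell numbers), libraries summed; bars are exact 95% Poisson intervals. Cluster g2 stands highest for H2-K1 (953 CPM) and H2-D1, while its B2m (42.6 CPM) lies within the range of the other early spermatocyte clusters.

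The size of this excess depends on whether g2 keeps its name. Without g2 the H2-K1 ratio of early spermatocytes to spermatogonia was log2 2.01 in EXO and 2.21 in dEXO, and that of H2-D1 1.13 and 1.93; PBS then had fewer than 50 cells. When cells were clustered anew from those with at most 10% mitochondrial UMIs, 24 of the 254 g2 cells were named early spermatocytes, 135 fell in unnamed clusters and 95 had been left out. The H2-K1 ratio was then 1.89 in EXO and 1.81 in dEXO, but that of H2-D1 was -0.02 and 0.34. With the clusters kept and only the cells above 10% left out, H2-K1 was at 2.77, 2.90 and 3.0 and H2-D1 at 2.72, 2.57 and 3.35, close to the values above. With a minimum of 1000 UMIs per cell H2-D1 was at 1.41 in EXO and 1.78 in dEXO. Against stromal-like cells H2-K1 in early spermatocytes was higher by 1.62, 1.65 and 1.83, but without g2 by 0.65 in EXO and 0.96 in dEXO, and by 0.19 and 0.42 in the new clustering at 10%; it was at 0.57 in PBS where each library was clustered alone. The heavy chain UMIs per B2m UMI were 8.64 in EXO and 13.6 in dEXO without g2, and 7.31 and 11.7 in the new clustering at 10%.

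Markers of other cells were also counted in early spermatocytes, at levels that differed between their clusters. The summed T or NK markers of g2 were at 43.9 CPM, from 4 of 10 genes, and its macrophage markers at 10.8, while T or NK-like cells themselves had 6336 to 7612 CPM of T or NK markers. The other germ clusters with at least 50 cells had 2.77 to 34.7 CPM of T or NK markers. Sertoli markers were at 85.1 CPM in g2 and Leydig markers at 328, against 6894 CPM of early spermatocyte markers. In g4 Leydig markers were at 875 CPM and Sertoli markers at 174, against 1993 of early spermatocyte markers. In g7 Leydig markers were at 553 CPM against 2457. The part of these markers in the class I levels was not tested. Over all early spermatocytes T or NK markers summed to 23.5, 29.6 and 29.5 CPM in PBS, EXO and dEXO. Cd3e alone, which encodes a chain of the T cell receptor complex, had 21.6 to 26.5 CPM there against 387 to 444 in T or NK-like cells, while Ptprc, a gene of all leukocytes, was at 0 to 0.98 against 496 to 598. The median mitochondrial share was 6.70% in g2, 13.4% in g4 and 1.03% to 1.83% in the other early clusters, and its part in the result was not tested beyond the values above.

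Because cells differ in depth, each cell was also thinned to 1000 UMIs and the share of cells with an H2-K1 UMI taken. Of early spermatocytes 25% (13.6% to 39.6%), 37.8% (31.5% to 44.3%) and 37.2% (32.3% to 42.3%) had one in PBS, EXO and dEXO, after 4, 64 and 114 shallower cells were left out. Before thinning the shares were 76.9%, 67.3% and 65.3%. Spermatogonia had 6.78%, 8.75% and 5.14% after thinning (72.9%, 55.0% and 57.5% before), and spermatids 0.690% and 0.897% in EXO and dEXO (41.4% and 45.7% before). Late spermatocytes had 7.84% in EXO and 5.41% in dEXO (37.1% and 43.7% before), which overlaps the spermatogonia, so the order of these stages by CPM is not read from the shares. Early spermatocytes were highest and spermatids lowest by either measure in EXO and dEXO. B2m was seen in 6.25%, 3.43% and 2.66% of thinned early spermatocytes.

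Free RNA released by broken cells can place UMIs of a gene in droplets of cells that do not express it. Its size was read from genes that germ cells should lack: the median Leydig reference gene, such as Insl3, stood in the germ stages at 0.564% to 1.55% of its level in Leydig-like cells, the median stromal one at 0.125% to 0.563% of the stromal level and the median leukocyte one at 0.0819% to 1.28% of the T or NK level. A second reference was the median, over 18 reference genes, of a gene's germ level as a share of its level in the whole library. In early spermatocytes this share was 1.37%, 3.35% and 4.40% in PBS, EXO and dEXO. Applied to H2-K1, the share of each stage would give 4.82 to 11.0 CPM in early spermatocytes, where 349 to 485 were measured. In spermatogonia it would give 4.88 to 8.85, where 51.8 to 60.3 were measured. In late spermatocytes the figures were 5.14 to 5.34 against 33.3 to 35.5, and in spermatids 3.60 to 7.14 against 11.6 to 12.3. H2-D1 in spermatids (2.06 and 3.65 CPM in EXO and dEXO) did not exceed its reference level of 2.36 and 3.95 in either library. B2m was nearer its reference level than H2-K1 in each stage, with 7.29 to 15.3 CPM against 9.98 to 21.1 in spermatogonia and 7.21 to 19.1 against 25.5 to 38.0 in early spermatocytes. These are medians over 18 reference genes, and single genes lay higher. Cd3e was the highest in early spermatocytes of all 3 libraries, and at its share H2-K1 would reach 841 to 933 CPM, H2-D1 466 to 613 and B2m 1232 to 1483, each above what was measured. In spermatogonia the highest reference gene would give 185 CPM of H2-K1 in PBS and 147 in dEXO (Cd3e), above the measured levels, and 59.1 in EXO (Coro1a), just under the 60.3 measured. In spermatids it would give 34.2 to 80.0 (Lum), above the measured levels, and in late spermatocytes 13.6 to 16.8, below them. The part of free RNA in the germ levels was not tested.

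The peptide transporter genes were close to absent from germ cells. Tap1 had at most 4 UMIs in any germ stage of a library and levels of 0.10 to 2.94 CPM, and Tap2 had 0 to 5 UMIs and 0 to 1.96 CPM. At so few UMIs no order among stages can be read. Tap1 stood at 10.8, 10.8 and 16.3 CPM in Leydig-like cells, 14.8, 20.2 and 27.9 in stromal-like cells and 15.7, 8.01 and 8.19 in Sertoli-like cells. T or NK-like cells had 120.1, 121 and 113 CPM and macrophage-like cells 102, 59.2 and 83.3. Tap2 was at 24.3, 21.3 and 20.6 CPM in Leydig-like cells, 28.5, 35.1 and 31.2 in stromal-like cells, 6.73, 4.45 and 5.59 in Sertoli-like cells, 42.0, 62.8 and 36.3 in macrophage-like cells and 116, 105 and 81.5 in T or NK-like cells. Early spermatocytes thus combined H2-K1 levels that overlapped those of Leydig-like cells with Tap1 and Tap2 levels of a few UMIs per library. Their H2-D1 stayed below the Leydig-like and stromal-like cells, and the size of both heavy chain levels depended on cluster g2, as given above.

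Tapbp was the one member called higher in late than in early spermatocytes. It was at 13.8, 12.7 and 18.8 CPM in spermatogonia of PBS, EXO and dEXO and at 7.84, 7.30 and 7.86 in early spermatocytes, the lowest class. This first step depends on the clustering: its log2 ratio in EXO was -0.79 here and 0.79 with each library clustered alone, and the call in dEXO was lost at resolution 2 (-0.04), with the class I genes kept in the clustering (-0.14) and with each library clustered alone (-0.07). Late spermatocytes had 47.2 (42.5 to 52.3) and 48.5 (45.5 to 51.7) CPM in EXO and dEXO, and spermatids 25.7 and 24.3. All 4 late spermatocyte clusters were at 38.2 to 65.4 CPM, above the spermatogonial and early spermatocyte clusters of at least 50 cells. The free RNA reference for late spermatocytes was 1.37 to 1.70 CPM. Among other classes Sertoli-like cells were highest, with 268, 236 and 222 CPM, ahead of stromal-like (116, 143, 170.1), macrophage-like (142, 120.2, 132), T or NK-like (130, 136, 140.0) and Leydig-like cells (79.0, 88.0, 94.9).

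Nlrc5 had no UMI in early spermatocytes of any library, which allows up to 2.94, 1.15 and 0.842 CPM at 3 counts in PBS, EXO and dEXO. It had 0, 1 and 1 UMI in spermatogonia, 1 in late spermatocytes of EXO and of dEXO, and 3 and 9 in spermatids. T or NK-like cells had 69.8 (56.8 to 84.9), 56.0 (44.2 to 69.8) and 56.4 (42.4 to 73.6) CPM, and macrophage-like cells 22.1, 7.18 and 19.2. In Leydig-like cells it was at 0.18, 0.44 and 0.66 CPM and in stromal-like cells at 0.34, 0.19 and 0.88, so that these classes, too, had class I heavy chains with little Nlrc5. In Sertoli-like cells 0, 0 and 6 UMIs were counted.

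Of the inducible proteasome genes, Psmb8 was nearly absent from the germ line and Psmb9 from the stages after spermatogonia. Psmb8 was at 0.98 to 1.68 CPM in early spermatocytes, 1.19 to 1.43 in spermatogonia and 0.42 to 1.16 in late spermatocytes and spermatids, each from 1 to 9 UMIs. These values lie at the free RNA reference (0.827 to 1.80 CPM in early spermatocytes). Psmb9 had 6.66, 8.44 and 4.76 CPM in spermatogonia, from 14 to 20 UMIs and above the median reference of 0.450 to 0.713, and 0.17 to 1.96 in the later stages. At the share of the highest reference gene Psmb9 in spermatogonia would reach 17.1 CPM in PBS and 12.4 in dEXO, above the measured levels. In EXO that gene would give 4.77 CPM, below the measured level. The part of free RNA was not tested. Psmb9 levels in spermatogonia overlapped those in Sertoli-like cells. T or NK-like cells had 1025, 1081 and 1022 CPM of Psmb8 and 259, 280 and 252 of Psmb9, and macrophage-like cells 584, 673 and 782 and 261, 213 and 241. Leydig-like cells had 33.4, 34.6 and 44.0 of Psmb8 and 25.5, 28.4 and 30.3 of Psmb9, stromal-like cells 36.1, 28.8 and 36.0 and 23.04, 18.2 and 24.4, and Sertoli-like cells 11.96, 6.23 and 6.79 and 9.72, 4.01 and 6.19.

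Each inducible subunit takes the place of a constitutive one in the proteasome, so the share of the inducible gene in the UMIs of its pair was compared between classes. Psmb8 made up 0.222% to 0.919% of Psmb8 plus Psmb5 in the germ stages, 2.55% to 5.30% in Sertoli-like, 8.66% to 12.6% in Leydig-like and 21.3% to 25.04% in stromal-like cells. In macrophage-like and T or NK-like cells it was 86.5% to 90.7% and 87.4% to 89.2%. Psmb9 made up 0.936% to 1.82% of Psmb9 plus Psmb6 in spermatogonia and 0.0260% to 0.445% in later stages, against 1.03% to 2.75% in Sertoli-like, 5.11% to 5.76% in Leydig-like, 8.54% to 9.75% in stromal-like, 43.5% to 53.9% in macrophage-like and 46.7% to 51.8% in T or NK-like cells. The third inducible subunit, Psmb10, behaved differently: its share with Psmb7 was 16.9% to 18.0% in spermatogonia, as high as in Sertoli-like cells (12.7% to 16.6%), then 10.1% to 11.0% in early spermatocytes, 2.55% to 2.69% in late spermatocytes and 1.05% to 1.24% in spermatids. Outside the germ line Sertoli-like cells were lowest, then Leydig-like, then stromal-like cells, for all 3 pairs, and macrophage-like and T or NK-like cells were highest and overlapped.

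**Figure D3:**
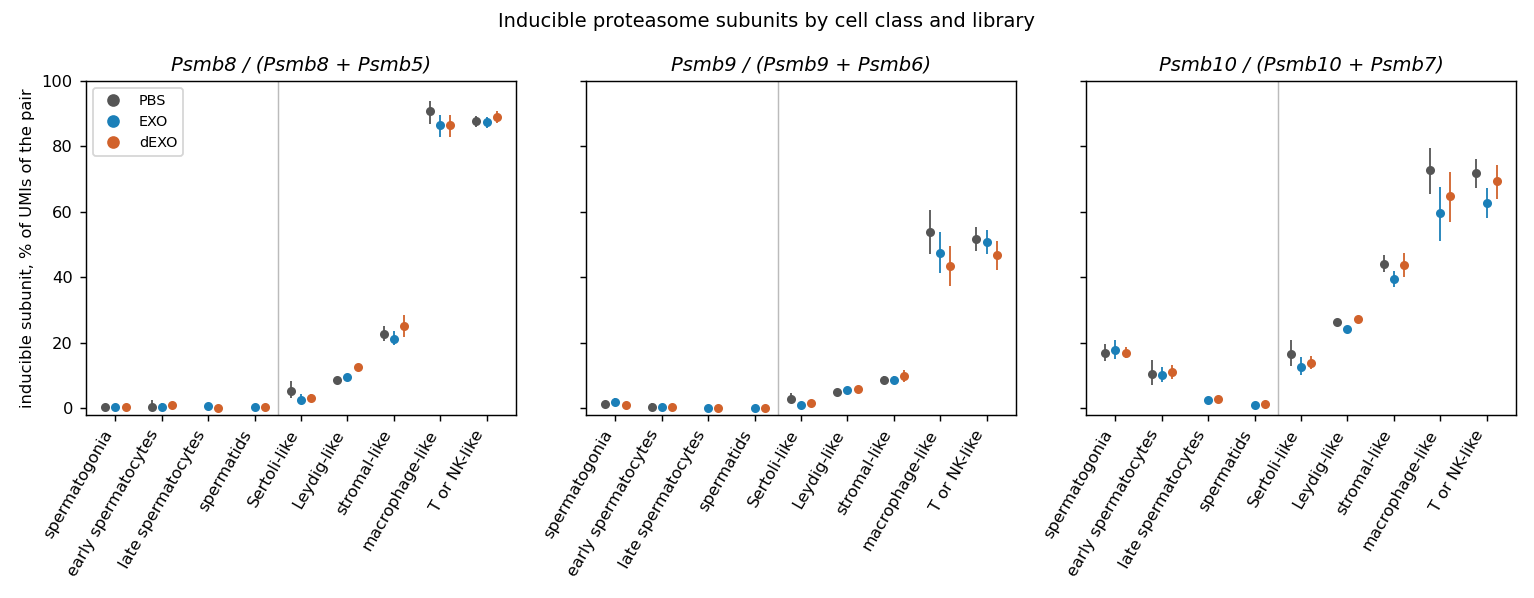
Share of the inducible subunit in the UMIs of its pair, in percent (vertical), for Psmb8 with Psmb5, Psmb9 with Psmb6 and Psmb10 with Psmb7, in 9 cell classes (horizontal) and 3 libraries; bars are exact 95% binomial intervals. Psmb8 lies under 1% in each germ stage and at 86.5% to 90.7% in macrophage-like cells, while Psmb10 reaches 16.9% to 18.0% in spermatogonia.

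Set against the other classes within each library, the pooled germ cells were lower for nearly every member with enough UMIs. Against T or NK-like cells all 9 of 9 were called lower in each library, where 17.3%, 20.7% and 18.2% of all genes were in PBS, EXO and dEXO. H2-K1 was 41.0, 38.6 and 38.5 times lower, H2-D1 216, 174 and 163 times, and B2m 178, 180.3 and 153 times. Tapbp was least different, at 6.44, 4.57 and 4.22 times lower, and Psmb8 most, at 1912, 1222 and 1585 times. Nlrc5, with 0 UMIs in PBS germ cells, was at least 217-fold lower there and 266 and 223 times lower in EXO and dEXO. Against macrophage-like cells 7 of 7, 6 of 6 and 7 of 7 were called lower (13.0%, 16.7% and 16.9% of all genes).

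Against Leydig-like cells 8 of 8 members were called lower in each library, beside 27.1%, 30.1% and 26.3% of all genes, while the median gene was higher in germ cells by log2 0.55, 0.54 and 0.90. H2-K1 was 5.57, 5.38 and 5.66 times lower, H2-D1 15.1, 13.3 and 12.1, and B2m 38.0, 45.4 and 40.2. With cells thinned to 1000 UMIs 5 members were called lower in PBS and 5 in dEXO. Against stromal-like cells 7, 8 and 8 of 8 were called lower (30.4%, 37.8% and 30.8% of all genes), and the exception was H2-K1 in PBS, at 1.79 times lower. Against Sertoli-like cells 4 of 4, 4 of 4 and 7 of 7 were called lower (24.4%, 30.8% and 28.6%). The germ cells differ in stage between libraries, so these pooled values mix stages in unequal parts. Taken by stage, early spermatocytes were called higher than stromal-like cells for H2-K1 in all 3 libraries and higher than Sertoli-like cells in EXO and dEXO, by log2 1.15 (0.99 to 1.30) and 1.12 (1.01 to 1.23), but not in PBS, at 0.36 (0.15 to 0.58).

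The other genes of the pathway were read from lists. None of 20 other class I and class I-like heavy chain genes reached 10 CPM in all libraries used in any germ stage, while 2 did in Sertoli-like, 5 in Leydig-like, 6 in stromal-like, 8 in macrophage-like and 9 in T or NK-like cells. Fcgrt, the receptor that carries maternal antibody and albumin, was at 320 to 336 CPM in stromal-like cells and 0.86 to 7.23 in the germ stages. H2-T23, a non-classical heavy chain seen by NK cells, had 237 to 331 CPM in T or NK-like cells and 0.17 to 10.2 in the germ stages. Mr1, which presents vitamin metabolites, had 31.2 to 40.1 CPM in Leydig-like cells and at most 0.98 in the germ stages. Against Leydig-like cells, 8 of the 9 of these 20 genes with enough UMIs were called lower in germ cells in each library (27.1%, 30.1% and 26.3% of all genes) and 1 higher.

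The general chaperones of the loading complex, which serve many proteins, stayed high in the germ line up to early spermatocytes. Of 10 loading and trimming genes 9 reached 10 CPM in all libraries in spermatogonia, 8 in early spermatocytes and 5 each in late spermatocytes and spermatids. Calr, encoding calreticulin, was at 360 to 397 CPM in spermatogonia and 765 to 893 in early spermatocytes, and Hspa5, encoding BiP, at 396 to 529 and 1219 to 1650. Pdia3, the disulphide isomerase of the complex, was at 487 to 552 and 412 to 463. From spermatogonia to early spermatocytes 2 genes of this list were called higher in each library, beside 9.33%, 9.01% and 12.1% of all genes. From early to late spermatocytes 7 of 8 were called lower in EXO and in dEXO, beside 42.5% and 40.2% of all genes.

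The inducible genes outside the members were not uniformly low. Psme1 and Psme2, which encode the PA28 activator of the proteasome, were at 184 to 191 and 207 to 219 CPM in spermatogonia and at 79.2 to 95.1 and 74.9 to 80.0 in early spermatocytes, but at 5.01 to 5.77 and 1.41 to 3.48 in late spermatocytes. Psmb10 went from 72.4 to 75.3 CPM in spermatogonia over 26.9 to 27.4 in early spermatocytes to 1.63 to 1.94 in spermatids. From early to late spermatocytes all 3 of these with enough UMIs were called lower in EXO and in dEXO, beside the same 42.5% and 40.2% of all genes. The constitutive genes Psmb5 (135 to 375 CPM in the germ stages) and Psmb6 (404 to 702) showed no such course, whereas Psma7 went from 584 to 639 CPM in spermatogonia to 10.9 to 14.5 in spermatids.

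Among regulators of class I transcription, 8 of 11 reached 10 CPM in all libraries in spermatogonia, 6 in early spermatocytes, 4 in late spermatocytes and 3 in spermatids, against 9 in T or NK-like cells. Rfxap, a subunit of the RFX complex that works with NLRC5, was higher in spermatogonia (134 to 159 CPM) and early spermatocytes (135 to 177) than in every other class, where it lay at 0.34 to 59.6. Irf2, an interferon regulatory factor, was at 1.21 to 3.57 CPM in spermatogonia and 0.77 to 1.96 in early spermatocytes and at 35.1 or more in each somatic and immune class. Of 9 interferon receptor and signal genes 4, 6, 0 and 0 reached 10 CPM from spermatogonia to spermatids. Ifngr1, a chain of the interferon gamma receptor, had 20.5 to 22.5 CPM in early spermatocytes, but its partner Ifngr2 had 0.98 to 1.92. Ifnar2, a chain of the type I interferon receptor, had 0 to 1.12 CPM there. Jak1, the kinase bound to these receptors, had 137 to 155 CPM in spermatogonia, 109 to 122 in early spermatocytes and 3.21 to 3.33 in late spermatocytes.

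Between libraries, none of the members passed the call rule in Leydig-like, stromal-like, T or NK-like or macrophage-like cells, for EXO or for dEXO against PBS. The same rule called 8.66% and 13.5% of all genes in Leydig-like cells (EXO, dEXO), 8.13% and 8.89% in stromal-like cells, 3.34% and 8.16% in T or NK-like cells and 4.66% and 11.2% in macrophage-like cells. The members had 7 to 9 genes with enough UMIs in these classes. Differences smaller than 2-fold often had intervals clear of 0, as did those of many other genes. In Leydig-like cells the interval lay above 0 for 5 of 8 members in EXO and 6 of 8 in dEXO, beside 34.0% and 38.6% of all genes, and in stromal-like cells for 5 and 4 of 8, beside 47.0% and 32.5%.

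In Leydig-like cells B2m was higher in EXO by log2 0.52 (0.49 to 0.54) and in dEXO by 0.30 (0.27 to 0.32). The libraries mixed the Leydig-like clusters unequally, with 1175, 1185 and 109 cells in c0 and 167, 535 and 1653 in c1. Within c0, c1 and c5 B2m was higher in EXO by 0.47, 0.81 and 0.54 and in dEXO by 0.26, 0.50 and 0.37, so the direction was the same in each. Tap1 was higher in dEXO by 0.60 (0.43 to 0.76), with 0.66, 0.21 and 0.86 in c0, c1 and c5, where the intervals of c0 and c1 include 0, and was at -0.0038 (-0.17 to 0.17) in EXO. Psmb8 was higher in dEXO by 0.40 (0.30 to 0.50). Tap2 was lower in both, at -0.19 (-0.31 to -0.07) in EXO and -0.23 (-0.37 to -0.10) in dEXO, but in c1 in EXO and c5 in dEXO it was at 0.16 and 0.19 with intervals that include 0. H2-K1 and H2-D1 lay within 0.21 of PBS in both libraries.

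In stromal-like cells Tap1 was higher in dEXO by log2 0.92 (0.56 to 1.28), the largest difference of a tested member in the 3 large classes, and in EXO by 0.45 (0.13 to 0.78). In the 4 stromal-like clusters the dEXO value was 0.38, 0.80, 1.05 and 1.32, with an interval that includes 0 in c2 and values past the call rule in c4 (0.29 to 1.83) and c7 (0.44 to 2.25). After thinning to 1000 UMIs it was 1.06 (0.29 to 1.88), also past the rule. Tapbp was higher in dEXO by 0.55 (0.41 to 0.68) and H2-K1 in EXO by 0.45 (0.33 to 0.56). The median gene itself was shifted by 0.25 in EXO and 0.16 in dEXO. Relative to it, Tap1 in dEXO was at 0.75, H2-K1 in EXO at 0.20, and Psmb8 and Psmb9 in EXO at -0.58 and -0.59. The stromal-like mix differed between libraries: c3, the cluster with the highest Psmb8 level, held 717 of 1656 cells in PBS but 692 of 3838 in EXO. Within clusters Psmb8 in EXO was higher in c3, by 0.36 (0.03 to 0.69), and its intervals in the other 3 clusters included 0, as did those of Psmb9 in all 4. In T or NK-like cells the largest difference was Tap2 in dEXO, at -0.51 (-0.92 to -0.11), and B2m was higher in EXO by 0.28 (0.21 to 0.34).

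**Figure D4:**
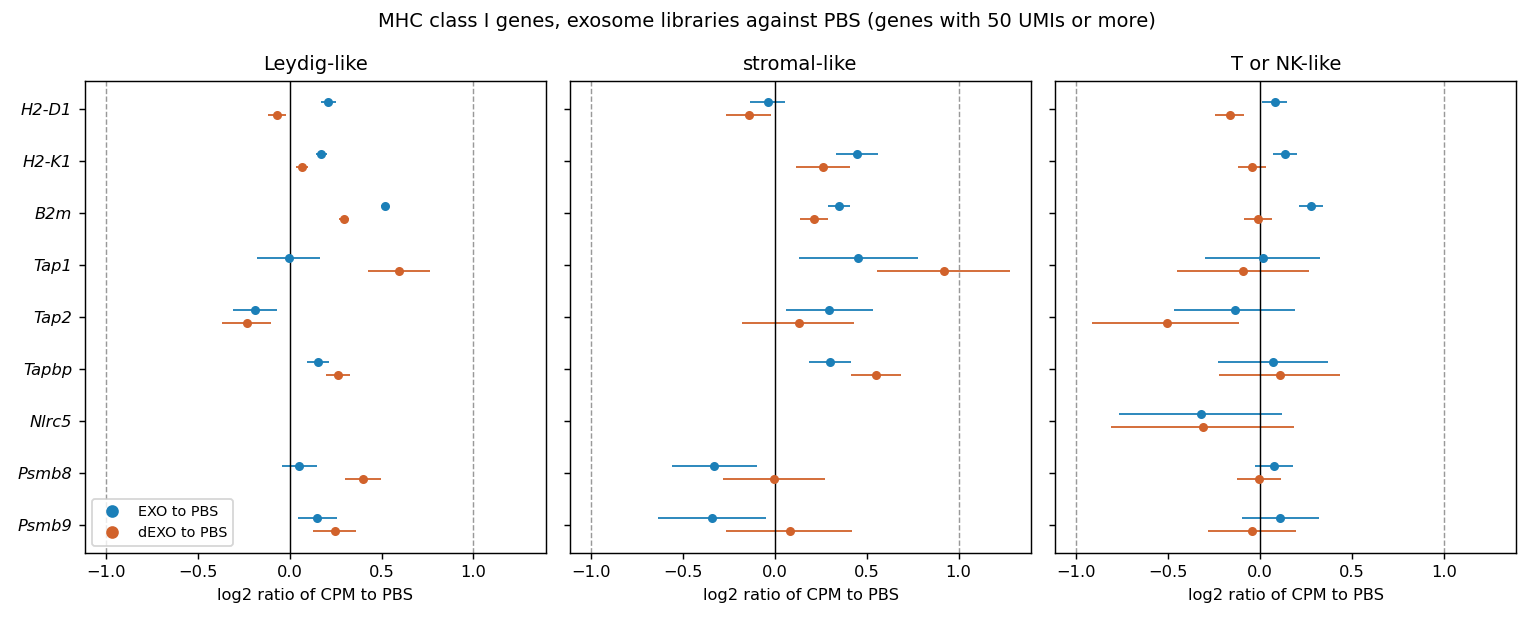
Log2 ratio of CPM of EXO to PBS and of dEXO to PBS (horizontal) for the members (vertical) in Leydig-like, stromal-like and T or NK-like cells; bars are exact 95% intervals for counting error, and dashed lines mark 2-fold. Each tested member lies between the dashed lines, with Tap1 in stromal-like cells of dEXO nearest to one, at 0.92.

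In Sertoli-like cells H2-D1 was lower in EXO by the call rule, at log2 -1.12 (-1.40 to -0.85), and in dEXO, at -1.21 (-1.44 to -0.98). It was 1 of 4 and 1 of 6 members tested, and 5.07% and 12.0% of all genes were called. The H2-D1 levels were 191 CPM in PBS from 81 cells, and 87.7 and 82.3. The interval lay below 0 for 3 of the 4 members in EXO and 5 of the 6 in dEXO, and above 0 for none. The median log2 ratio of the tested members was -0.46 in EXO and -0.64 in dEXO. That of all genes tested was 0.079 and 0.077. H2-T23 was lower as well, at -1.86 and -2.10. Leydig markers were present in these Sertoli-like cells at 5107 CPM in PBS and 1210 and 2124 in EXO and dEXO, and their part in the difference was not tested. After thinning, the EXO value of H2-D1 was -0.82 (-1.89 to 0.30), no longer a call.

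Among the germ stages 1 difference between libraries was called. In spermatogonia B2m was called higher in EXO, at log2 1.08 (0.26 to 1.93) from 35 against 21 UMIs, 1 of 3 members tested, where 1.41% of all genes were called. The free RNA reference for B2m in spermatogonia moved the same way, from 7.29 CPM in PBS to 15.3 in EXO, and its part was not tested. In dEXO B2m was at 0.82 (0.11 to 1.59) and no member was called (2.76% of all genes). H2-K1 in spermatogonia was at 0.22 (-0.19 to 0.62) and 0.15 (-0.18 to 0.49). In early spermatocytes H2-K1 was higher by 0.47 (0.30 to 0.65) in EXO and 0.47 (0.31 to 0.64) in dEXO, and H2-D1 by 0.58 and 0.77, none of them a call. No call was made among the 3 members tested there, beside 129 of 7814 genes in EXO and 496 of 8722 in dEXO. The share of g2 cells moved in the same direction, at 9 of 52, 85 of 297 and 160 of 490 cells, and the median depth of early spermatocytes went from 14664 UMIs in PBS to 2681 and 2578.5; their part was not tested. Between dEXO and EXO no member was called in late spermatocytes (3.02% of all genes) or in spermatids (1.86%).

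Of the 9 genes for receptors that read class I, 6 reached 10 CPM in all libraries in T or NK-like cells, 2 in macrophage-like cells and none elsewhere. Cd8a and Cd8b1, whose products bind class I on cytotoxic T cells, were at 167 to 245 and 248 to 339 CPM in T or NK-like cells. In T or NK-like cells Klrd1, the CD94 chain of NK cell receptors, was at 69.1 CPM in PBS and 197 in EXO, a log2 difference of 1.51 (1.18 to 1.86), and its partner Klrc1 was higher in EXO by 1.06 (0.40 to 1.76). Klra1 and Klra7, which encode Ly49 receptors for H-2 heavy chains, were higher in dEXO, by 2.84 (2.03 to 3.75) and 2.56 (1.84 to 3.35), from 10.47 to 75.2 and from 14.0 to 82.5 CPM. Klra1 and Klra7 belong to a family of close copies, so the split of reads among them is uncertain, and the share of NK cells in this class was not tested. The heavy chains H2-K1 and H2-D1 in the same cells were at 0.14 and 0.08 in EXO and at -0.04 and -0.16 in dEXO. In macrophage-like cells Lilrb4a was lower in EXO, at -1.34, and Pirb, an inhibitory receptor that binds class I, was lower in dEXO, at -1.40. Other list genes were also called between libraries: H2-Q7, a further heavy chain gene, was higher in macrophage-like cells of EXO by 1.07, and Psmb5 in those of dEXO by 1.03. Psme4, a proteasome activator, was higher in T or NK-like cells of dEXO by 1.24. Psma8, a proteasome subunit of the germ line with 120 to 139 CPM in late spermatocytes, was higher in stromal-like cells by 1.86 in EXO and 2.82 in dEXO and in Leydig-like cells by 1.10 and 2.10, at 9.45 CPM or less. In Sertoli-like cells it was higher by 2.06 and 1.59. Named germ cells made up 3.61%, 8.19% and 16.0% of the cells in PBS, EXO and dEXO. The part of free germ cell RNA in these Psma8 values was not tested. Between dEXO and EXO, Nfyc and Psme2 were higher in late spermatocytes by 1.00 and 1.30 and Fcgrt lower, at -1.25. Ifngr2 and Jak1 were higher in spermatids by 1.24 and 1.34.

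The genes whose levels were most like the sum of H2-K1 and H2-D1 over 25 combinations of class and library were Gm9794 (Pearson r 0.922), Rpl23 (0.916), Ifngr1 (0.915), H2-T23 (0.912) and Rpl11 (0.910), among 15883 genes. The correlation was taken on log2(CPM + 1). The combinations share 3 libraries and 9 classes, and these r describe these points only.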

How the data were processed

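Single-cell RNA of mouse testis was measured in 3 libraries, 1 per group, with a 3' tag kit. The authors deposited raw UMI counts per gene and cell barcode, which per the file headers come from Cell Ranger 5.0.1. The build is GRCm38, and Seurat is also named, per the submitters' processing notes.

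Barcodes under 500 UMIs or 300 genes, or above 20% mitochondrial UMIs, were left out. They were clustered with scanpy 1.11.5 and leidenalg 0.10.2 (2000 variable genes without the class I lists, 30 components, 15 neighbours, resolution 1), and germ cells were clustered again. Doublets remain, because the doublet caller did not work here: it marked 0 to 4 cells per library. Marker genes for 20 classes were fixed at the start, but the rule that names clusters from them was revised after clusters were seen, giving 5 versions, and the last were made after levels of the 9 genes had been printed. The members and gene lists were chosen with earlier results of these data known.

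UMIs were summed per class and library, for classes of at least 50 cells. Intervals are exact 95% Poisson, conditional binomial or Clopper-Pearson intervals. They cover counting error only, and with 1 library per group no test was made. A difference was called at 2-fold with an interval clear of 0, for genes with 50 UMIs. A level of 0 was bounded at 3 counts. Calls were tested on simulated data. The genes named are the 9 members, the 3 genes of each pathway list with the most UMIs, list genes past the call rule between libraries, and the 5 genes most like H2-K1 plus H2-D1. One gene of these lists is not reported here. Ifngr1 is also one of these 5, and Psmb7 is named as a pair partner. Outside this rule the reference genes Insl3, Cd3e, Ptprc, Coro1a and Lum, the genes leading cluster g2 and the class II genes were chosen after their values were seen.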

Additional observations from a re-analysis of the deposited data

How the results depend on the processing

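Over 13 planned and 4 added alternatives, the latter chosen after seeing the data, 1943 values were compared. Of these 1658 stayed within the counting interval or, for counts of genes, within 1.5 times, 284 did not and 1 called value took the other sign. The log2 ratio of H2-K1 in early spermatocytes to spermatogonia stayed at least 1.81 wherever it could be computed. In EXO it was 2.63 with at least 1000 UMIs per cell, 1.89 with at most 10% mitochondrial UMIs, 2.70 at resolution 0.5, 2.32 with each library clustered alone and 2.01 without cluster g2. In dEXO it was 2.29 with at least 1000 UMIs, 1.81 with at most 10% mitochondrial UMIs, 2.31 at resolution 0.5, 2.73 at resolution 2, 2.76 with the class I genes kept in the clustering, 3.52 after thinning and 2.21 without g2. In PBS it was 2.38 at resolution 2, and several settings left under 50 cells and gave no value. The ratio of H2-D1 in EXO was -0.0214 with at most 10% mitochondrial UMIs, a change of sign. After thinning, 5 members in PBS and 5 in dEXO were called lower in germ than in Leydig-like cells, and 3 and 5 than in stromal-like cells, with fewer UMIs per gene. Between libraries 1 member was called with each library clustered alone (Psmb8 in T or NK-like cells of dEXO, 1.06), 1 after thinning (Tap1 in stromal-like cells of dEXO) and 2 with no gene filter (Nlrc5 in Leydig-like cells, 1.28 in EXO and 1.87 in dEXO). The cause of these moves was not tested. No paired analysis was possible because each group has 1 library. Depth limits Nlrc5, Tap1, Tap2 and Psmb8 in germ cells to a few UMIs.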

Other observations

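Class II genes, which serve presentation to helper T cells, gave a further value in the germ line. H2-Ab1 was at 36.1 to 46.0 CPM in early spermatocytes, against 1.90 to 7.23 in spermatogonia, 10.2 to 11.2 in late spermatocytes and 10.8 to 13.3 in spermatids. Macrophage-like cells had 9539 to 10651 CPM. In the same early spermatocytes its partner H2-Aa was at 0 to 2.25 CPM, H2-Eb1 at 1.96 to 3.07 and Cd74, the invariant chain, at 0 to 5.05.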
